A study of Mus musculus with 28 samples.

Results

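The imprinted genes described here are 32 genes of 12 imprinted regions of the mouse genome, listed by name from known imprinted clusters. The rule uses no measured value, but earlier results of these data were known when the genes were chosen. All 32 were found among the 53843 annotated genes of chromosomes 1 to 19 and X, 30 as protein-coding genes and H19 and Meg3 as long noncoding RNAs. The same overlaps were counted over all 21755 protein-coding genes, and their share is given throughout as the background. H3K9me2 had been mapped by ULI-NChIP, a native chromatin immunoprecipitation made for small cell numbers, with the antibody ab1220. The experiment had 28 libraries, 14 from immunoprecipitated chromatin and 14 from input, and the deposited files analysed here hold 5 lists of H3K9me2 domains. In 4 of the lists the cells were sorted after 72 h from a BL6/129 hybrid EHMT2-dTAG-mCherry line that also carries a MERVL-GFP reporter: reporter-negative mouse embryonic stem cells (mESCs) in DMSO, mESCs in the degrader dTAG-13, reporter-positive 2-cell-like cells (2CLCs) in DMSO, and 2CLCs in dTAG-13, with 3 immunoprecipitation and 3 input libraries each. The name of the fifth list gives neither state nor treatment, so it was assigned to no group and is called the unnamed set. Bulk mESCs of an EHMT2-dTAG-mCherry line, 24 h in DMSO, make up the remaining libraries, 2 of each kind.

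Every sorted group, DMSO included, carries the degron allele and the mCherry reporter, so no list comes from cells with an untagged Ehmt2. The sorted material came from 1 clone per the methods, and a retinoic acid receptor agonist was present. The labels limit the agonist to 2 replicates, which are not named, while the methods state no such limit. The mESCs were grown in serum and LIF on feeder cells. Each condition is a single list without replicate values, and no difference between lists could be compared with the spread between cultures. The lists hold positions and no RNA or marker values, so the sorted states could not be checked against their markers, and they do not separate the maternal from the paternal chromosome.

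Imprinted genes are expressed mainly from a single parental copy, a state set by DNA methylation that is laid down in egg or sperm at imprinting control regions and kept through early development. In embryonic stem cells the methylated copy of these regions is bound by the zinc finger protein ZFP57, which recognises the methylated hexamer TGCCGC and brings in TRIM28 and further repressors. EHMT2, also called G9a, forms with EHMT1 the enzyme that places H3K9me2, a mark of repressed chromatin. In the placenta EHMT2 is known for its part in silencing the paternal copy of genes at the edges of the Kcnq1 cluster and, through the long noncoding RNA Airn, of Slc22a3. A domain in these lists is a stretch of bins, with edges on a grid of 5 kb, grown from bins with a high ratio of immunoprecipitation to input until a bin with a low ratio, so it can hold middling bins as well. A gene start was called in a domain when its first annotated base lay within one.

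Promoters of 6 genes are shown as examples of 5 of the 7 combinations of sorted lists in which an imprinted start met a domain: Snrpn lay in a domain in all 4 sorted lists, Peg3 in all of them but mESC DMSO, Meg3 and Magel2 in both dTAG lists and neither DMSO list, Plagl1 in mESC dTAG alone among the sorted lists, and Mest in 2CLC dTAG alone. The sequences are the RefSeq promoter windows of assembly GRCm38.p6, 250 bases before to 50 after a RefSeq gene start, written 5′ to 3′ on the strand of the gene. Capitals mark TGCCGC, searched on both strands, and every match in these windows is on the opposite strand and so reads GCGGCA.
Snrpn promoter, chr7:60005150-60005449, minus strand: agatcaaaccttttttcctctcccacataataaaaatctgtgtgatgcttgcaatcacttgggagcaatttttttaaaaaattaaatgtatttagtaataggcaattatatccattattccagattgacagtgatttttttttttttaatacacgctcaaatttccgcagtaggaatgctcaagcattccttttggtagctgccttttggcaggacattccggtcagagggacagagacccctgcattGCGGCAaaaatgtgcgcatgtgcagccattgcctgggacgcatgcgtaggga
Peg3 promoter, chr7:6730370-6730669, minus strand: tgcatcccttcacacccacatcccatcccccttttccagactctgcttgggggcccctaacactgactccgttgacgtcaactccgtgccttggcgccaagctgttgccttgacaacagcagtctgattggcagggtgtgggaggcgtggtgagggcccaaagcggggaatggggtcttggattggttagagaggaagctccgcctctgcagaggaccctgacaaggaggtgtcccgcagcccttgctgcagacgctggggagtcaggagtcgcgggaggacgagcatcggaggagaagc
Meg3 promoter, chr12:109540746-109541045, plus strand: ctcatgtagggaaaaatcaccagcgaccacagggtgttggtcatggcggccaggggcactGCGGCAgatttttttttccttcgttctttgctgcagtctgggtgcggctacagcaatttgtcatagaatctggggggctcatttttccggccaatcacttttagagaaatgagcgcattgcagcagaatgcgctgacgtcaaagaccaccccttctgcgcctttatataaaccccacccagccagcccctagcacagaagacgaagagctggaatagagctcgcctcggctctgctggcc
Magel2 promoter, chr7:62376729-62377028, plus strand: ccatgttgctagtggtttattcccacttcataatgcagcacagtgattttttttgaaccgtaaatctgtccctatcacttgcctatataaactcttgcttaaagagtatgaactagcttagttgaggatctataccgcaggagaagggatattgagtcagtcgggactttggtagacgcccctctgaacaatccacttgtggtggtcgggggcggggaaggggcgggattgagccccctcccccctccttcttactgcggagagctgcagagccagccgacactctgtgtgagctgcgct
Plagl1 promoter, chr10:13090582-13090881, plus strand: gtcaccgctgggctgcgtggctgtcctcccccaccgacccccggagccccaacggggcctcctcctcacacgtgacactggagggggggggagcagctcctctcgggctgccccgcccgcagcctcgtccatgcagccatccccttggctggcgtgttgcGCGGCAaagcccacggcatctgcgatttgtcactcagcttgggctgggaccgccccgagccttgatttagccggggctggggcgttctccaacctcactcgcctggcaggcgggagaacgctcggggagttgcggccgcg
Mest promoter, chr6:30737800-30738099, plus strand: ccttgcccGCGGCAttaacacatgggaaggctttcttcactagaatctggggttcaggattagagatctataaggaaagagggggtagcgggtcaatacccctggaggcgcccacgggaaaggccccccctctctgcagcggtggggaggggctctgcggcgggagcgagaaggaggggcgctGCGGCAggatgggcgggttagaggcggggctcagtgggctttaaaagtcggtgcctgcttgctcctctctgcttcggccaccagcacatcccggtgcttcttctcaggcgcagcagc
The Snrpn, Meg3 and Plagl1 windows hold the hexamer once, the Mest window holds it at 2 places, and the Peg3 and Magel2 windows do not hold it. RefSeq windows were matched for 26 of the 32 genes, 41 windows in all, and 11 of the 41 windows (26.8%) held the hexamer, against 3813 of 32851 windows (11.6%) over all genes. These belonged to 10 of the 26 genes, namely Osbpl5, Igf2, Slc22a2, Zim1, Snrpn, Meg3, Mest, Grb10, Nnat and Plagl1. The share by gene was not counted over all genes. The 11 windows include overlapping windows of the same Mest promoter, which is thus counted more than once. The windows of the imprinted genes were also richer in CpG, with a median of 16.0 per window against 7.00 over all windows. The 10 genes with the hexamer therefore span starts that were in domains and starts, such as those of Osbpl5, Igf2 and Nnat, that were in a domain in none of the sorted lists.

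To find out whether imprinted genes lay in H3K9me2 domains and whether this differed after EHMT2 depletion, gene starts were counted first. In mESC DMSO, 3 of the 32 starts (9.38%, Wilson 95% interval 3.24 to 24.2%) were in a domain, beside 22.3% of protein-coding genes. These were Slc22a2, an organic cation transporter gene, Snrpn, which encodes a protein of the splicing machinery, and Ndn, a MAGE family gene of the Prader-Willi region. In mESC dTAG, 13 starts (40.6%, 25.5 to 57.7%) were in a domain, beside 23.6% of protein-coding genes. The list was Snrpn, Ndn and Slc22a2 together with H19, Peg3, Usp29, Magel2, Mkrn3, Ube3a, Meg3, Peg10, Sgce and Plagl1. In 2CLC DMSO the count was 8 (25.0%, 13.3 to 42.1%) beside a background of 23.2%, and in 2CLC dTAG it was 13 (40.6%, 25.5 to 57.7%) beside 26.5%. Beside protein-coding genes the imprinted genes thus sat below the background in mESC DMSO, near it in 2CLC DMSO and above it in both dTAG lists. Of these intervals, that of mESC dTAG alone left out its background. H19 and Meg3 are noncoding, and without them 11 of 30 starts (36.7%, 21.9 to 54.5%) were in a domain in each dTAG list. That interval holds the background of both lists. Over all 53843 annotated genes, noncoding ones included, the shares were higher, at 35.4% (DMSO) and 33.8% (dTAG) in mESCs and 35.0 and 36.7% in 2CLCs. Against these, both DMSO lists were below, and 2CLC dTAG was nearer to its background than mESC dTAG. With domains of at least 50 kb alone, the imprinted counts were 2 (DMSO) and 11 (dTAG) in mESCs and 8 and 9 in 2CLCs. The 2CLC lists thus differed little at that width, for which no background was counted. The intervals count genes only, and since neighbours in a cluster share domains they are too narrow, so the position of a count relative to its background is a description.

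The background differed by less, from 22.3 to 23.6% in mESCs and from 23.2 to 26.5% in 2CLCs, and the movement of single starts was followed next. Of the 29 starts outside domains in mESC DMSO, 10 (34.5%, 19.9 to 52.7%) were inside in mESC dTAG, beside 8.14% of protein-coding starts, and none of the 3 inside starts left, beside 22.7%. The 10 were H19, Peg3, Usp29, Magel2, Mkrn3, Ube3a, Meg3, Peg10, Sgce and Plagl1. In 2CLCs, 6 of 24 outside starts entered (25.0%, 12.0 to 44.9%, background 9.80%), namely H19, Slc22a2, Ndn, Magel2, Meg3 and Mest. One of the 8 inside starts, that of the zinc finger gene Zim1, left (12.5%, background 18.3%). H19, Magel2 and Meg3 entered in both cell states, and no gene entered in one state and left in the other. Among protein-coding imprinted genes alone, 8 of 27 entered in mESCs (29.6%, 15.9 to 48.5%). In 2CLCs it was 4 of 22 (18.2%, 7.31 to 38.5%), an interval that holds the background. Of these, Slc22a2 and Ndn were 2.13 and 1.99 kb outside in 2CLC DMSO, less than 1 bin. The pair Peg3 and Usp29 have starts 147 bp apart and the pair Peg10 and Sgce have starts 99 bp apart, each pair was in the same state in all 5 lists, and so the 32 genes amount to 30 separate start positions.

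The same starts also differed between the cell states. From mESC DMSO to 2CLC DMSO, 7 of 29 starts entered a domain (24.1%, background 5.13%), which were Peg3, Zim1, Usp29, Mkrn3, Ube3a, Peg10 and Sgce, while 2 of 3 left (background 13.9%), which were Slc22a2 and Ndn. From mESC dTAG to 2CLC dTAG, Mest entered, 1 of 19 (5.26%, background 8.16%), and Plagl1 left, 1 of 13 (7.69%, background 14.1%). The DMSO lists of the cell states had 1 imprinted start in common, Snrpn, while the dTAG lists had 12. Several of the calls behind this were within 1 bin of the opposite call. Slc22a2 and Ndn were 2.13 and 1.99 kb outside in 2CLC DMSO. Peg3, Usp29 and Ube3a were 4.22, 4.08 and 4.17 kb outside in mESC DMSO. Among the shared dTAG starts, Magel2 was 2.57 kb inside in mESC dTAG. The starts in common were not counted with changed domain edges. The comparisons share lists with those above and are not independent of them.

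Put together over the 4 sorted lists, 17 of 32 starts (53.1%, background 65.8%) were in no domain and 1, Snrpn, was in a domain in all 4 (background 15.1%). Apart from no domain at all, the most frequent combination was a start in every list but mESC DMSO. It held for 6 genes (18.8%, background 1.55%): Peg3, Usp29, Mkrn3, Ube3a, Peg10 and Sgce. Of these, Peg3, Usp29 and Ube3a were 4.22, 4.08 and 4.17 kb from a domain in mESC DMSO, less than 1 bin. Peg3 and Usp29 nearly share a start, as do Peg10 and Sgce. H19, Magel2 and Meg3 were in both dTAG lists and neither DMSO list (9.38%, background 2.72%). H19 and Meg3 are noncoding and the background is not. Among the 30 protein-coding imprinted genes it was 1, Magel2 (3.33%), near the background. Slc22a2 and Ndn were in every list but 2CLC DMSO.

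**Figure D1:**
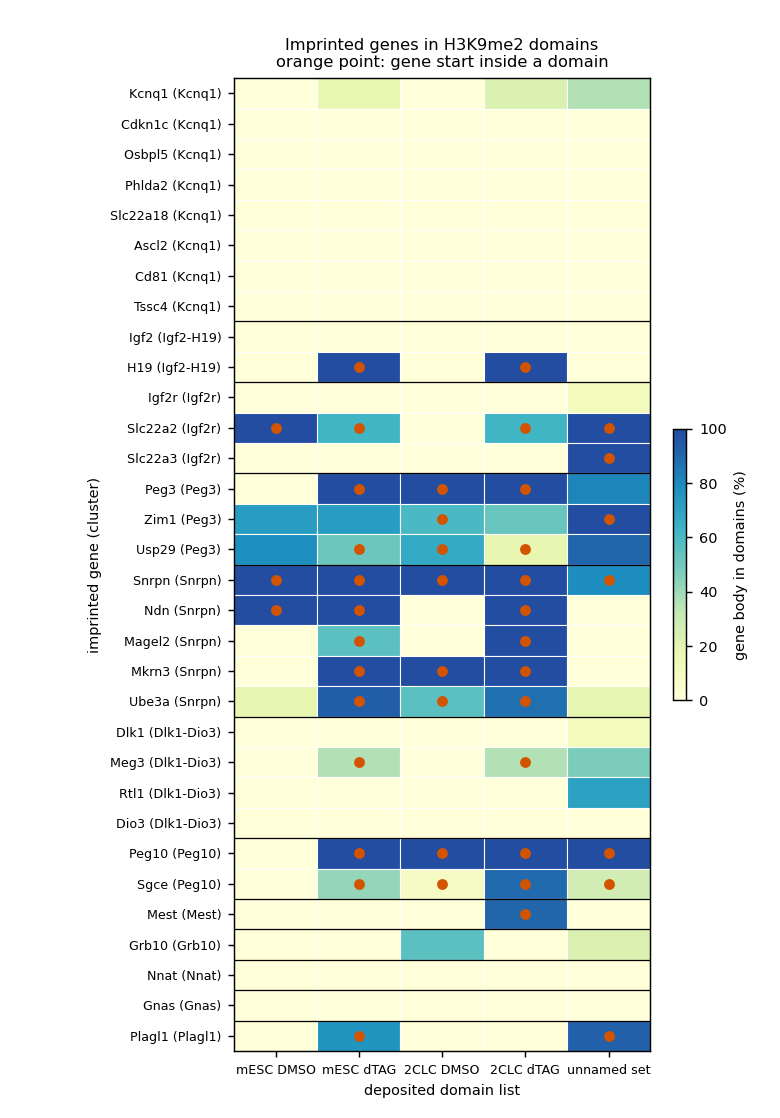
Percentage of each gene body in H3K9me2 domains (colour, 0 to 100%) for the 32 imprinted genes (rows, grouped by cluster with black lines) in the 5 deposited lists (columns), with an orange point where the gene start is in a domain. From left to right the columns hold 3, 13, 8, 13 and 7 points, and the 8 rows of the Kcnq1 cluster hold none.

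Gene bodies gave a like picture. At least 50% of the body was in domains for 5 genes in mESC DMSO (15.6%, background 23.1%) and 12 in mESC dTAG (37.5%, background 22.5%). The 2CLC counts were 8 in DMSO (25.0%, background 23.5%) and 12 in dTAG (37.5%, background 25.0%), and 9 bodies (28.1%, background 30.9%) counted in the unnamed set. Among the 30 protein-coding imprinted genes, 11 bodies (36.7%) counted in each dTAG list. With any base of the body in a domain, the counts were 6 (background 27.9%) and 15 (background 30.9%) in mESCs, 9 (background 28.4%) and 15 (background 35.3%) in 2CLCs, and 16 (background 37.3%) in the unnamed set. The mean share of an imprinted gene body in domains went from 14.7% (DMSO) to 34.6% (dTAG) in mESCs and from 20.2 to 36.3% in 2CLCs. The same mean over protein-coding genes stayed between 23.1 and 25.7% in these 4 lists. Most imprinted bodies were all or nothing. In mESC DMSO 26 of 32 had no base in a domain and 3 were covered whole, and in mESC dTAG 17 had none and 6 were covered whole.

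**Figure D2:**
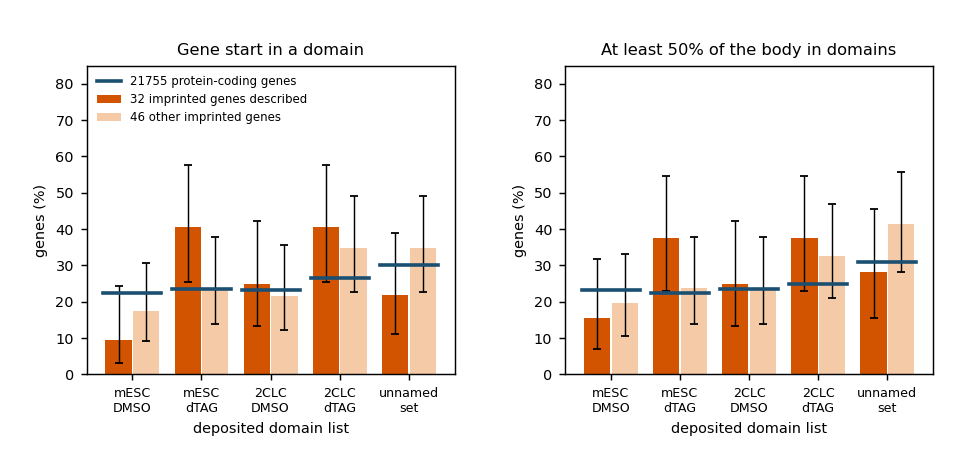
Percentage of genes with the start in a domain (left) and with at least 50% of the body in domains (right) in each deposited list, for the 32 imprinted genes (dark bars) and 46 other imprinted genes (light bars) with Wilson 95% intervals, beside all 21755 protein-coding genes (blue lines). The dark bars for starts stand at 9.38% in mESC DMSO and 40.6% in both dTAG lists, while the blue lines stay between 22.3 and 30.0%.

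H19 and Meg3 are maternally expressed long noncoding RNA genes that lie beside imprinting control regions methylated on the paternal copy. H19 (chr7:142575529-142578143, minus strand) was 136 kb from the nearest domain in mESC DMSO and 161 kb in 2CLC DMSO. In mESC dTAG its start and whole body lay in a domain of 35 kb (chr7:142554473-142589472), and in 2CLC dTAG in one of 20 kb (chr7:142569473-142589472). The 2 domains share their upper edge, 11.3 kb upstream of the H19 start, and the DMSO lists had no domain in the stretch. Igf2, the paternally expressed growth factor gene of the same cluster (chr7:142650766-142666816, minus strand), stayed outside. It was 47.7 kb from a domain in DMSO and 62.7 kb in dTAG in mESCs, and 72.7 and 52.7 kb from one in 2CLCs.

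Meg3 (chr12:109541001-109571726, plus strand) repeated the pattern of H19. Its start was 154 kb from a domain in mESC DMSO and 229 kb in 2CLC DMSO. In mESC dTAG it lay in a domain of 40 kb (chr12:109511983-109551982) and in 2CLC dTAG in one of 45 kb (chr12:109506983-109551982). Each ended 11.0 kb into the gene and took in 35.7% of its body. Like the domains over H19, of 35 and 20 kb, these are not counted when only domains of at least 50 kb are kept. The neighbours of Meg3 remained outside in all 4 lists. Dlk1, a paternally expressed gene for a Notch pathway ligand, was 65.8 kb from a domain in DMSO and 55.8 kb in dTAG in mESCs, and 141 and 54.2 kb from one in 2CLCs. Rtl1, a retrotransposon-derived gene of the placenta, was 213, 48.3, 288 and 48.3 kb away in the same order. For Dio3, the thyroid hormone deiodinase gene at the far end of the cluster, the distances were 7.91, 17.9, 22.9 and 37.9 kb. Rtl1 was thus nearer to a domain in both dTAG lists and Dio3 farther from one.

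The Snrpn cluster, the mouse counterpart of the Prader-Willi and Angelman region, lies within long stretches of H3K9me2 domains. Over a span of 3391 kb, which includes 100 kb on each side, domains covered 88.1% (DMSO) and 97.1% (dTAG) in mESCs, and 94.7 and 94.8% in 2CLCs. Snrpn (chr7:59982495-60140219, minus strand) lay whole inside domains in all 4 lists. The domain around its annotated start was 230 kb wide in mESC DMSO, 920 kb wide in 2CLC DMSO and 1010 kb wide in both dTAG lists. Its printed promoter, whose RefSeq start is at 60005199, lay in the same domains, 25.6 kb from the nearest edge in mESC DMSO and between 229 and 254 kb from it in the other sorted lists.

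Around Snrpn the other genes stood at domain edges. Ube3a, the maternally expressed ubiquitin ligase gene of Angelman syndrome (chr7:59228750-59311536, plus strand), began 4.17 kb outside a domain in mESC DMSO. Its start was 15.8 kb inside one in mESC dTAG and 10.8 kb inside in both 2CLC lists. The share of its body in domains went from 18.1% (DMSO) to 94.0% (dTAG) in mESCs and from 55.4 to 87.9% in 2CLCs. At the far end lie the paternally expressed Ndn, Magel2 and Mkrn3, Ndn and Magel2 of the MAGE family and Mkrn3 a gene for a ring finger ubiquitin ligase that restrains puberty. Ndn (chr7:62346569-62350262, plus strand) was whole inside a domain of 45 kb in mESC DMSO, of 145 kb in mESC dTAG and of 105 kb in 2CLC dTAG, and in 2CLC DMSO it was 1.99 kb outside with none of its body covered. Magel2 (chr7:62377010-62381640, plus strand) was outside by 22.4 kb in mESC DMSO and by 7.57 kb in 2CLC DMSO. In the dTAG lists the domain that held Ndn reached over the Magel2 start, by 2.57 kb in mESCs (55.5% of the body) and by 7.57 kb in 2CLCs (100% of the body). Mkrn3 (chr7:62417593-62420139, minus strand) was 14.4 kb outside in mESC DMSO and whole inside in the other lists, in domains of 590 kb (mESC dTAG), 820 kb (2CLC DMSO) and 540 kb (2CLC dTAG). With an edge grid of 5 kb, the Magel2 start in mESC dTAG, the Ndn start in 2CLC DMSO and the Ube3a start in mESC DMSO were all within 1 bin of the opposite call.

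In the Peg3 cluster, zinc finger and protease genes lie in a region mostly in domains. Domains covered 73.8% of the span in both mESC lists, 80.8% in 2CLC DMSO and 57.7% in 2CLC dTAG. Peg3, a paternally expressed zinc finger gene (chr7:6703892-6730431, minus strand), was in a gap in mESC DMSO, with its start 4.22 kb from a domain and no base of its body covered. In mESC dTAG its whole body lay in a domain of 125 kb (chr7:6699654-6824652), in 2CLC DMSO in one of 190 kb (chr7:6694654-6884652) and in 2CLC dTAG in one of 45 kb (chr7:6699654-6744652). Usp29, a paternally expressed gene of the ubiquitin-specific protease family that is read in the other direction, had its start in those same domains. Its body cover was lower with dTAG in both cell states, from 78.2% in mESC DMSO to 51.4% in mESC dTAG, and from 68.3% in 2CLC DMSO to 17.6% in 2CLC dTAG. Zim1, the maternally expressed zinc finger gene beside Peg3, had 73.0% of its body in domains in both mESC lists, 60.3% in 2CLC DMSO and 53.2% in 2CLC dTAG. Its start was 6.80 kb outside in mESC DMSO and 3.20 kb outside in both dTAG lists, and in 2CLC DMSO it was inside by 1.80 kb, which is less than 1 bin.

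Peg10, a retrotransposon-derived gene needed for the placenta, and Sgce, the gene for epsilon-sarcoglycan, share a promoter region that is methylated on the maternal copy. Their starts (Peg10, chr6:4747306-4760517, plus strand, and Sgce, chr6:4674350-4747207, minus strand) were 19.1 and 19.2 kb from a domain in mESC DMSO. Both lay in a domain of 130 kb in mESC dTAG (chr6:4716402-4846400), of 75 kb in 2CLC DMSO (chr6:4741402-4816400) and of 130 kb in 2CLC dTAG (chr6:4681402-4811400). Peg10 was covered whole in these 3 lists. The cover of the Sgce body went from 0 (DMSO) to 42.3% (dTAG) in mESCs and from 7.97 to 90.3% in 2CLCs, so that on the Sgce side the domain reached farthest in 2CLC dTAG.

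**Figure D3:**
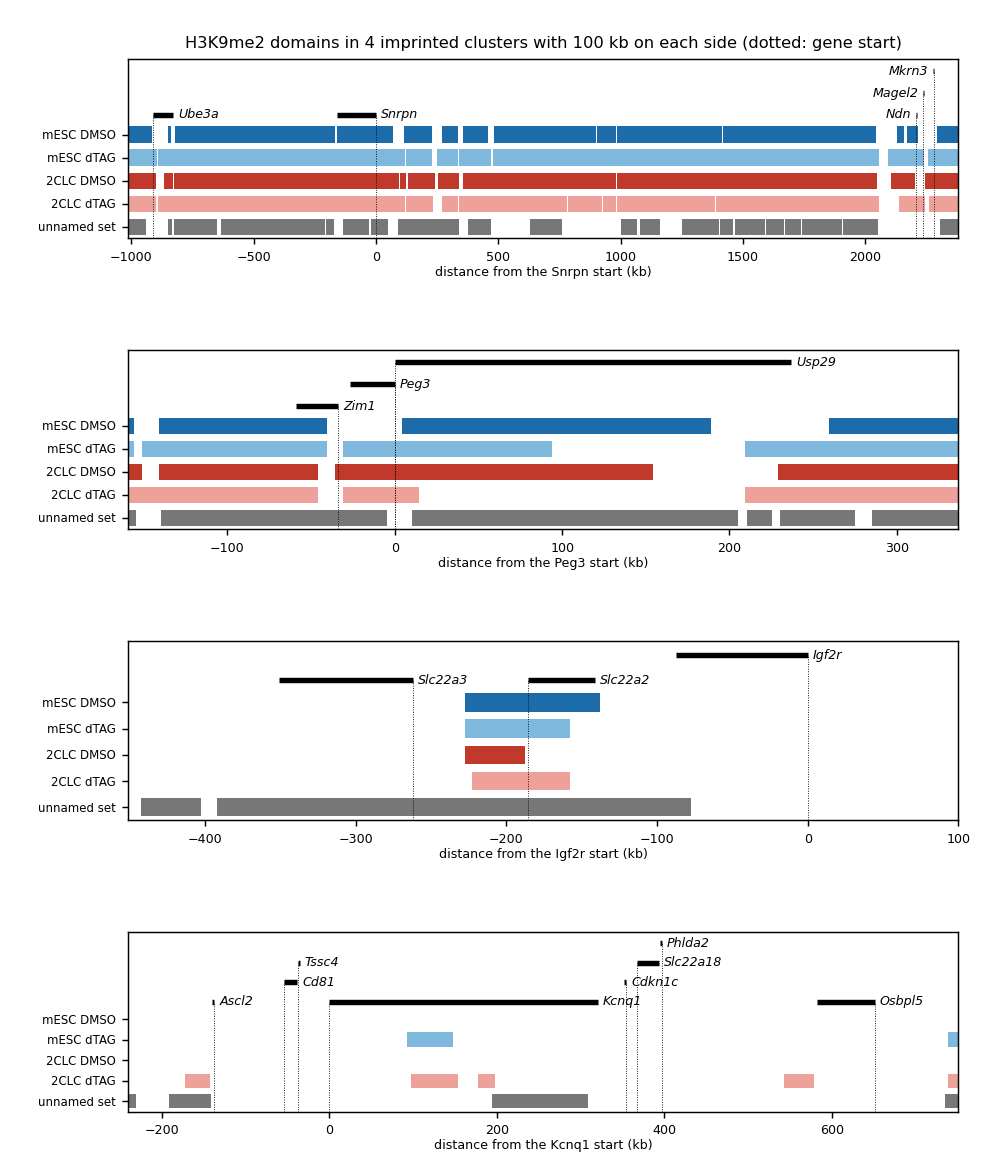
H3K9me2 domains (coloured blocks) in the 5 deposited lists along the Snrpn, Peg3, Igf2r and Kcnq1 clusters with 100 kb on each side, against the distance in kb from the start of the first named gene, with lower coordinates on the left. Black bars are gene bodies and dotted lines gene starts. The Snrpn span is covered from 88.1 to 97.1% in the sorted lists, while the Kcnq1 span has no domain in either DMSO list.

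Plagl1 and Mest, single imprinted genes with germline methylated promoters, had their annotated start in a domain in 1 sorted list each. Plagl1, a paternally expressed zinc finger gene (chr10:13060504-13131694, plus strand), lay in a domain of 120 kb in mESC dTAG (chr10:12994984-13114983) that took in 76.5% of its body. In mESC DMSO and 2CLC dTAG a domain of 15 kb with the same lower edge stopped 50.5 kb short of the start, and in 2CLC DMSO the nearest domain was 129 kb away. Mest, a paternally expressed gene of the hydrolase family (chr6:30723547-30748465, plus strand), lay in a domain of 70 kb in 2CLC dTAG (chr6:30676367-30746366) with 91.6% of its body. Elsewhere it was 198 kb away in both DMSO lists and 168 kb away in mESC dTAG. Every RefSeq start of Mest and of Plagl1 was in the same state as the annotated start in the 4 sorted lists.

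**Figure D4:**
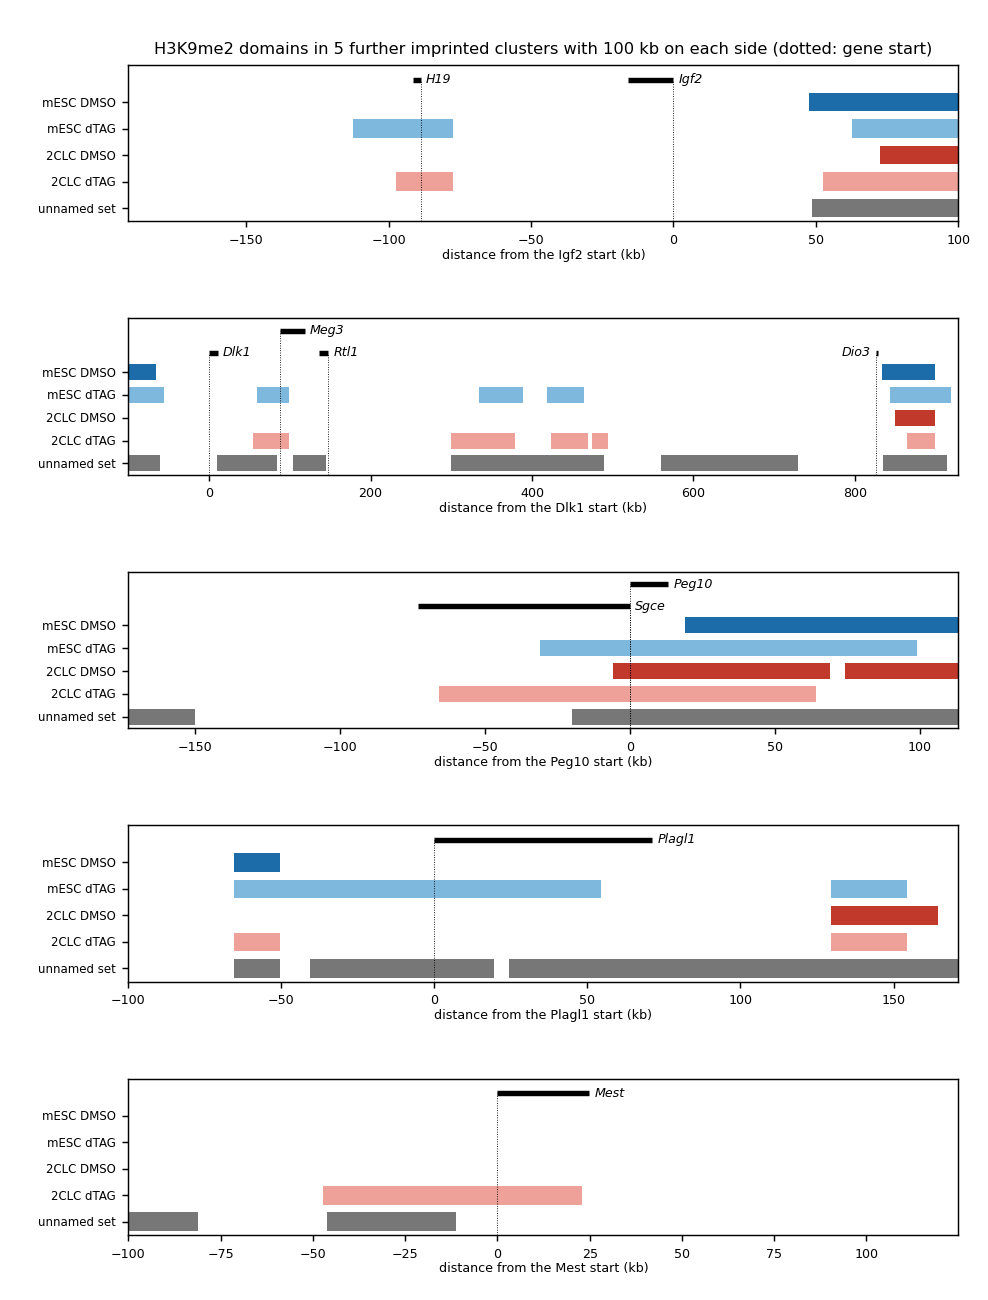
H3K9me2 domains (coloured blocks) in the 5 deposited lists along the Igf2-H19, Dlk1-Dio3, Peg10, Plagl1 and Mest clusters with 100 kb on each side, against the distance in kb from the start of a named gene, with lower coordinates on the left. Black bars are gene bodies and dotted lines gene starts. The dTAG lists alone have domains over the starts of H19 (35 and 20 kb) and Meg3 (40 and 45 kb).

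Slc22a2 was the imprinted gene whose body moved in opposite directions in the 2 cell states. This gene, maternally expressed in the placenta (chr17:12584132-12628488, plus strand), was whole inside a domain of 90 kb in mESC DMSO (chr17:12541998-12631997). In mESC dTAG the domain ended 20 kb earlier and the cover was 62.8%. In 2CLC DMSO the domain ended 2.13 kb before the start and left the body at 0, and in 2CLC dTAG a domain of 65 kb again covered 62.8%. The lower edge stayed at the same bin in mESC DMSO, mESC dTAG and 2CLC DMSO, so these differences lie in the upper edge. Slc22a3, the neighbouring cation transporter gene whose paternal copy is silenced in placenta (chr17:12418960-12507704, minus strand), was outside in all 4 lists, by 34.3 kb in mESC DMSO, mESC dTAG and 2CLC DMSO and by 39.3 kb in 2CLC dTAG. Igf2r, the maternally expressed receptor that clears IGF2 (chr17:12682406-12769664, minus strand), was 138, 158, 188 and 158 kb away, and Airn, which starts within Igf2r, was outside all lists as well.

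The Kcnq1 cluster held the largest group of genes that never entered. Its 8 members are maternally expressed: Kcnq1 for a potassium channel, Cdkn1c for a cell cycle inhibitor, Phlda2, a brake on placental growth, Slc22a18 for a transporter, Osbpl5 for a lipid binding protein, Ascl2 for a transcription factor of the trophoblast, Cd81 for a tetraspanin and Tssc4. No start was in a domain in any of the 5 lists. In both DMSO lists the span of 990 kb had no domain at all, and the distances to the nearest domain ran from 120 kb for Ascl2 to 908 kb for Osbpl5 in mESC DMSO and from 110 to 898 kb for the same genes in 2CLC DMSO. Domains covered 6.82% of the span in mESC dTAG and 15.4% in 2CLC dTAG. Among them was a domain of 55 kb within the Kcnq1 gene in each dTAG list (chr7:143199472-143254471 in mESCs and chr7:143204472-143259471 in 2CLCs), which with a second one in 2CLCs brought the cover of the Kcnq1 body to 17.2% and 23.4%. That second domain, of 20 kb (chr7:143284472-143304471), held the start of Kcnq1ot1, the long noncoding RNA of the cluster, which was 42.1 kb outside in mESC dTAG. Ascl2 ended up 4.79 kb from a domain in 2CLC dTAG, the nearest approach of a start in this cluster in the sorted lists.

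The first annotated base of Grb10, of Nnat and of Gnas was in no domain in any list. Grb10, a growth-restraining adaptor gene expressed from the maternal copy in most tissues and the paternal copy in neurons (chr11:11930508-12038683, minus strand), lay 1.14 kb from a domain in both DMSO lists, 41.1 kb in mESC dTAG and 26.1 kb in 2CLC dTAG. The cover of its body in 2CLCs went from 55.5% in DMSO to 0 in dTAG, and its RefSeq start at 12027971 was in a domain in 2CLC DMSO alone. Nnat, a paternally expressed neuronal gene (chr2:157560078-157562522, plus strand), was 1353 kb from a domain in mESC DMSO and 1638 kb in 2CLC DMSO. Both dTAG lists had a domain of 25 kb at chr2:157572768-157597767, 12.7 kb from its start. Gnas, the gene for the stimulatory G protein alpha subunit with several imprinted promoters (chr2:174284320-174346744, plus strand), was 137 kb (DMSO) and 658 kb (dTAG) away in mESCs and 658 and 132 kb away in 2CLCs.

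**Figure D5:**
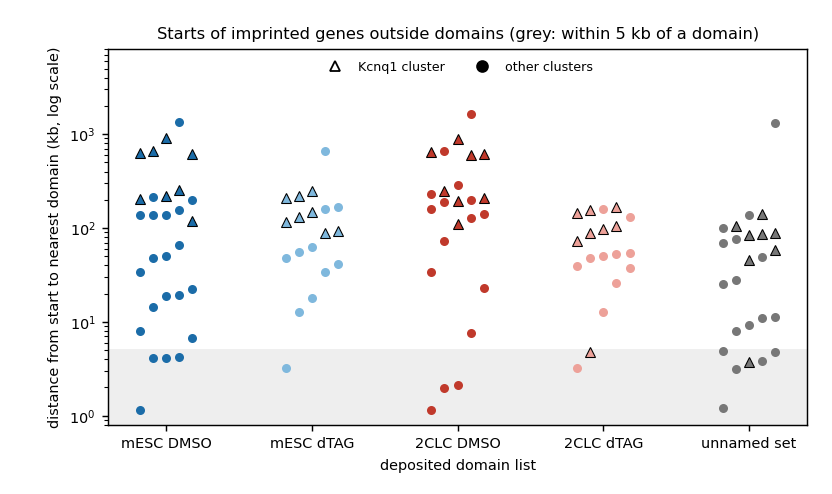
Distance in kb (log scale) from the start to the nearest domain for the imprinted genes whose start was outside domains in each deposited list, with triangles for the Kcnq1 cluster and the grey band for distances within 5 kb. The Kcnq1 cluster lies between 120 and 908 kb in mESC DMSO, and the farthest start in 2CLC dTAG is at 169 kb.

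Over all starts outside domains, the median distance to the nearest domain went from 120 kb (DMSO) to 93.1 kb (dTAG) in mESCs and from 190 to 54.2 kb in 2CLCs. For protein-coding starts outside domains the medians went from 315 to 146 kb and from 329 to 105 kb, so outside starts were nearer to domains in dTAG in both groups. Imprinted starts within 5 kb of a domain, the size of 1 bin, numbered 4 and 1 in mESCs and 3 and 2 in 2CLCs, DMSO first. As shares of the outside starts these were 13.8 and 5.26% in mESCs and 12.5 and 10.5% in 2CLCs, beside 3.74, 3.99, 3.41 and 5.52% of outside protein-coding starts. The domains that held imprinted starts had median widths of 90 kb (DMSO) and 130 kb (dTAG) in mESCs and of 190 and 105 kb in 2CLCs. At protein-coding starts the widths were 640 and 390 kb in mESCs and 735 and 260 kb in 2CLCs. The median width at imprinted starts was thus below that at protein-coding starts in each of these lists, without a test.

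As whole regions, the 12 cluster spans amount to 8.30 Mb. Domains covered 45.8% of this in mESC DMSO and 54.2% in mESC dTAG, while over the genome cover went from 53.7 to 46.3%. For 2CLCs the cluster spans went from 48.5 to 52.8% and the genome from 51.5 to 48.4%. Cluster cover was thus higher with dTAG where genome cover was lower. The dTAG lists held more domains, 7312 against 4323 in mESCs and 8820 against 4246 in 2CLCs. Domain positions give no amount of H3K9me2, so higher cover is not read as more of the mark. In 2CLCs the cluster difference was smaller with domains of at least 50 kb alone, which covered 46.9% of the spans in DMSO and 47.9% in dTAG. Snrpn takes up much of the span, and without it the remaining 11 clusters (4.91 Mb) were covered by 16.6% in both DMSO lists, 24.6% in mESC dTAG and 23.7% in 2CLC dTAG. In mESCs 7 of 12 clusters had more cover in dTAG, 2 had less (Igf2r and Grb10) and 3 were within 1 kb, and in 2CLCs 9 had more, 2 had less (Peg3 and Grb10) and 1, Gnas, was within 1 kb.

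The members were also grouped by traits taken from textbook knowledge. Of 15 paternally expressed genes, 2 (DMSO) and 9 (dTAG) had their start in a domain in mESCs, and 6 and 9 in 2CLCs. Of 15 maternally expressed genes, the counts were 1 and 4 in mESCs and 2 and 4 in 2CLCs. The paternal group includes both pairs with nearly shared starts and 4 genes of the Snrpn cluster, and the maternal group includes the 8 genes of the Kcnq1 cluster, so this difference cannot be told apart from that between clusters. Of 6 genes whose imprint is known mainly from placenta (Osbpl5, Ascl2, Cd81, Tssc4, Slc22a2 and Slc22a3), Slc22a2 was the sole one in a domain in any sorted list. A further 8 genes were those listed with a promoter at a germline methylated region (Peg3, Snrpn, Peg10, Mest, Nnat and Plagl1) or starting within 1 kb of one of these genes (Usp29 and Sgce). Of these 8, 1 and 6 had their start in a domain in mESCs and 5 and 6 in 2CLCs. The counted starts of Snrpn, Mest and Plagl1 lay away from their printed promoters, but both positions had the same state in the sorted lists. The background for these groups is the share of protein-coding starts, 22.3 and 23.6% in mESCs and 23.2 and 26.5% in 2CLCs, and nothing particular to a group is read from counts this small.

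Base composition around the starts was read from the genome in windows of 2500 bases on either side. Imprinted starts had a median GC content of 51.0% and 133 CpG per window, beside 47.4% and 98.0 for protein-coding genes, and 12.9% of their bases were in soft-masked repeats beside 20.6%. The 17 starts in no sorted domain had a median GC content of 53.4%, and the 15 in at least 1 had 48.7%. Protein-coding starts in no sorted domain also had a GC content, 49.2%, above the median of all. The 10 imprinted starts that entered in mESC dTAG had a median GC content of 49.5% and 14.2% in repeats, and the 1375 protein-coding starts that entered had 45.8% and 22.3%. Dio3 had the highest GC content of the imprinted starts at 61.8% and Snrpn the lowest at 36.3%. The part of base composition in the domain calls was not tested.

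In the unnamed set, 7 imprinted starts (21.9%, 11.0 to 38.8%) were in a domain beside 30.0% of protein-coding genes, namely Slc22a2, Slc22a3, Zim1, Snrpn, Peg10, Sgce and Plagl1. Its domains covered 62.6% of the genome and 56.3% of the cluster spans. H19 was 137 kb from a domain there and Meg3 3.85 kb. A domain of 315 kb (chr17:12377395-12692394) held Slc22a2 and Slc22a3 whole, and at the printed Snrpn promoter the RefSeq start was 0.396 kb outside a domain although the annotated start farther upstream was inside one.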

How the data were processed

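H3K9me2 ULI-NChIP libraries were aligned by the authors with STAR in a multi-mapping mode, duplicates and regions of high signal were removed, coverage was scaled to genome content, and a log2 ratio over input was computed in overlapping windows on a 5 kb step. Domains grew from bins above a high percentile of the ratio to a bin below a low one. The submitters' processing notes name STAR 2.7.10, Picard 2.26.0, SAMtools 1.14, bedtools 2.30.0, deepTools 3.5.1 and R 4.1.2. Whether replicates were pooled, and whether percentiles were set per list, was not stated, so no amount of H3K9me2 was read from them. Their depth is unknown. The deposited lists give positions in mm10 and a score, and the deposited score was 0 in every line.

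Here, gene starts and bodies of GENCODE M21 were laid over the 5 lists base by base (Python 3.11.15, numpy 2.4.6). Every list stayed within the chromosome ends of GRCm38.p6. A body was called in domains at 50% of its bases, and cluster spans had 100 kb flanks. Wilson 95% intervals cover counting only. Without replicate values no test was made. Overlap code was tested on simulated data. The members and gene lists were chosen with earlier results of these data known. All 32 members were named. Alternatives changed domain edges by 1 bin, minimum domain width, flanks, body threshold and the annotated start, and starts from RefSeq and counting close starts once were added after seeing the data.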

Additional observations from a re-analysis of the deposited data

Results flagged for a closer look

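The body cover of Slc22a2 moved in opposite directions in the 2 cell states. It fell by 37.2 percentage points from DMSO to dTAG in mESCs and was 62.8 points higher in dTAG in 2CLCs. There is 1 list per condition, and the difference was not tested.

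Slc22a3 was outside domains in all 4 sorted lists, and in the unnamed set, which entered no comparison, it lay whole in a domain of 315 kb. It has no control list to be set beside, and the difference was not tested.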

How the results depend on the processing

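No paired analysis was possible because each condition is 1 list of positions without replicate values. No replicate was left out for the same reason. Of 104 alternative values over 19 results, 72 stayed near the value given and 32 moved. The starts that entered with dTAG numbered 7 to 10 in mESCs and 4 to 6 in 2CLCs under every alternative. The 7 in mESCs came with RefSeq starts, where genes without a matched RefSeq window were counted as outside. H19, Peg10 and Sgce were among those genes.

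With domains lengthened by 1 bin at each end, 7 imprinted starts were in a domain in mESC DMSO and 13 in the unnamed set, and 1 left in mESCs. With any annotated transcript start, 6 were in a domain in mESC DMSO and 2 left in 2CLCs, as with any RefSeq start (2). In 2CLCs 3 left and 4 entered with domains of at least 50 kb, where 8 (DMSO) and 9 (dTAG) starts were in a domain. With shortened domains 0 left in 2CLCs. Bodies at 90% or more numbered 3 in mESC DMSO, 7 in mESC dTAG and 4 in 2CLC DMSO. With shortened domains 5 bodies counted in 2CLC DMSO, and with any base 16 counted in the unnamed set.

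The cover of the cluster spans moved most with the flank. With 500 kb flanks it was 35.3% (DMSO) and 39.4% (dTAG) in mESCs, 36.3 and 40.7% in 2CLCs and 48.7% in the unnamed set, and with no flank 52.5, 61.7, 56.6, 60.7 and 58.8%. With shortened domains it was 43.3% (DMSO) and 51.4% (dTAG) in mESCs, 49.0% in 2CLC dTAG and 51.1% in the unnamed set. With lengthened domains it was 56.8% in mESC dTAG, 56.1% in 2CLC dTAG and 60.9% in the unnamed set. With domains of at least 50 kb it was 47.9% in 2CLC dTAG and 53.1% in the unnamed set. The 2CLC difference was smallest there, with 46.9% in DMSO. The causes were not tested. Starts within 5 kb of a domain edge can change call with a shift of 1 bin, and the depth of the libraries, which sets how well an edge is placed, is unknown.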

Other observations

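A further 46 imprinted genes, of 47 listed, were counted in the same way. Their starts were in a domain for 8 (DMSO, 17.4%) and 11 genes (dTAG, 23.9%) in mESCs, 10 (21.7%) and 16 (34.8%) in 2CLCs, and 16 in the unnamed set (34.8%). The background of protein-coding starts was 22.3 and 23.6% in mESCs, 23.2 and 26.5% in 2CLCs and 30.0% in the unnamed set, so the mESC dTAG share lay at its background. In mESCs 6 of 38 outside starts entered with dTAG (15.8%, background 8.14%), namely Zim3, Zfp264, Calcr, Pon2, Copg2 and Inpp5f, while 3 of 8 left (background 22.7%), Atp10a, Tfpi2 and Nap1l5. In 2CLCs 7 of 36 entered (19.4%, background 9.80%), namely Kcnq1ot1, Ppp1r9a, Asb4, Calcr, Pon2, Peg13 and Inpp5f, while 1 of 10 left (background 18.3%), Htr2a. Calcr, Pon2 and Inpp5f were in both dTAG lists and neither DMSO list. Inpp5f, a phosphoinositide phosphatase gene with an imprinted isoform, was 253 kb from a domain in mESC DMSO and 403 kb in 2CLC DMSO, and lay in domains of 35 kb in mESC dTAG and 40 kb in 2CLC dTAG. Peg13, a paternally expressed noncoding RNA gene, was covered whole by a domain of 70 kb in 2CLC dTAG and was 137 kb from one in mESC DMSO. Airn was outside domains in all 5 lists, at 109 kb (DMSO) and 129 kb (dTAG) in mESCs, 159 and 129 kb in 2CLCs and 48.9 kb in the unnamed set.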
